A study of Mus musculus with 21 samples.

Results

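The genes described here encode the liver's machinery for burning fatty acids, together with the receptor PPAR alpha and targets of that receptor. They were chosen from a list of 37 gene symbols by the symbol that the array's platform annotation gives each row of the table, and 36 of them were found among the 25428 genes measured. Acsl1 was not analysed here, because no row carried that symbol. Livers came from 2 groups of mice on a standard diet. Gata4-LSEC-KO mice (10 livers, called knockout livers) carried a floxed Gata4 gene, from the stock Gata4tm1.1Sad/J, and the C57BL/6N driver transgene Clec4g-icre, which encodes Cre recombinase. Clec4g is a lectin gene of liver sinusoidal endothelial cells (LSEC), so the driver targets the lining of the smallest liver vessels and not the hepatocytes in which most fatty acid oxidation takes place. Control livers came from 11 siblings, whose genotype the labels give as wt. Age, sex and whether the controls carried the Cre transgene are not given in the sources used here. Whole livers were lysed, and each array held the RNA of 1 liver. The comparison asks what deleting Gata4 in these endothelial cells does to whole-liver transcripts, read here for fatty acid oxidation.

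As background, PPAR alpha (encoded by Ppara) is a nuclear receptor that binds fatty acids and their derivatives and, paired with the retinoid X receptor, switches on genes of fatty acid uptake, oxidation and ketone body synthesis. It is best known in liver for the response to fasting and to fibrate drugs. Fatty acids are first bound and activated to acyl-CoA, then carried into mitochondria by the carnitine shuttle and shortened there by beta-oxidation. Very long chains are first shortened in peroxisomes, and a side route in the endoplasmic reticulum, omega-oxidation, begins with hydroxylases of the Cyp4a family. In rodents the Cyp4a genes and peroxisomal genes are classic readouts of PPAR alpha activity.

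Values were log2 signals normalised with RMA, on a scale with a median of 3.75 on every array. Sample numbers in the labels form 2 consecutive blocks, called runs here, and each run held both genotypes (4 knockout and 5 control livers in run 1, 6 and 6 in run 2), so run was a term in the fit. Gata4 itself had lowest, median and highest values of 6.10, 6.51 and 6.92 in knockout livers, against 6.34, 6.68 and 7.35 in controls, and its difference, -0.19 ± 0.10 (SE), missed the threshold (adjusted p = 0.264). The highest knockout value, 6.92, was that of knockout replicate 2, beside a mean of 6.92 in the controls of its run, run 1. The other run 1 knockout livers lay between 6.39 and 6.54, below every run 1 control. In run 2 the groups overlapped, with 6.10 to 6.78 in knockout livers and 6.34 to 6.78 in controls. Where the Gata4 probes lie relative to the deleted part was not given, so these values cannot check the labels. How far Gata4 was deleted in knockout replicate 2 was not tested. Clec4g, a marker of the targeted cells, was lower, with a difference of -0.92 ± 0.23 (SE; adjusted p = 0.0176). Hepatocyte markers were near the top of the scale in both groups, with mean log2 values over 9 genes of 13.11 to 13.26 in knockout livers and 13.13 to 13.26 in controls. In such whole-liver samples, fewer cells of a type and less RNA per cell cannot be told apart.

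One knockout liver stood apart in these genes, and its values are needed to read the rest. For each liver, every gene's log2 value was set against the mean of that run's controls, and the median was taken over the 36 genes. That median was 0.36 in knockout replicate 2, a run 1 liver, and -0.69 to 0.045 in the other 9 knockout livers, against -0.15 to 0.18 in the 11 controls. Knockout replicate 2 was thus above every control liver, while 7 knockout livers lay below every control. It was the highest of the knockout livers for 27 of the genes, and knockout replicate 4 was the lowest for 21. Over all genes, the array of knockout replicate 2 correlated with those of its own genotype and run at a mean r of 0.987, within the range of 0.980 to 0.991 over all livers. Results are therefore given with and without this liver. Since leaving it out removes the knockout liver with the highest values of the genes being counted, the counts without it are a description and not a second line of evidence.

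**Figure D1:**
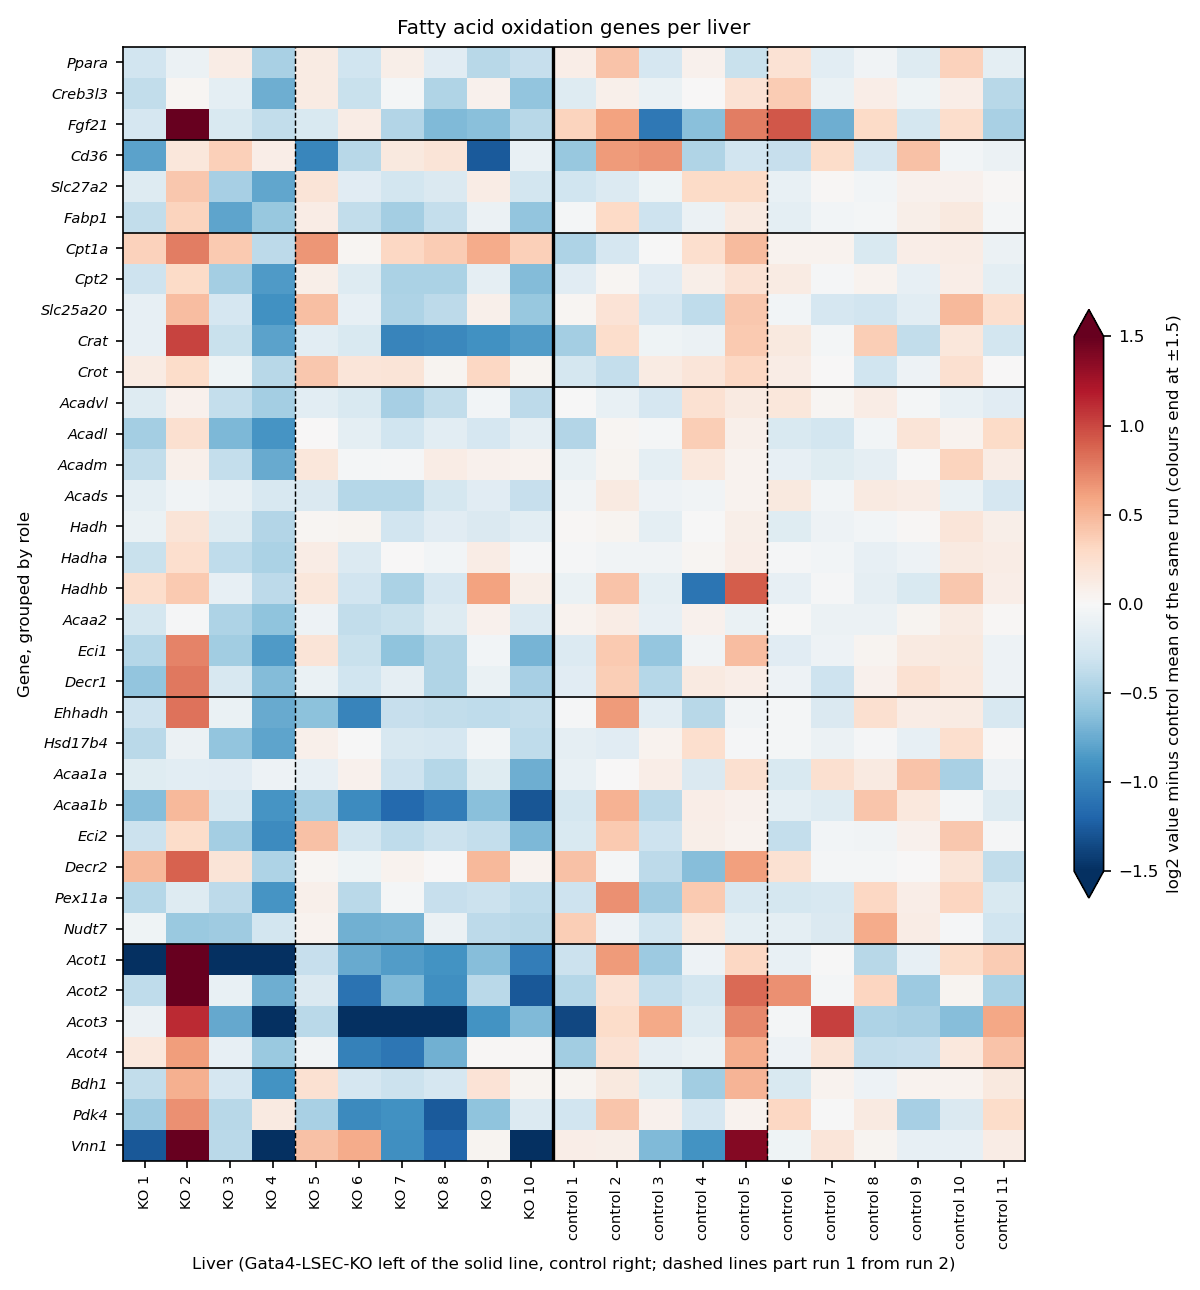
Each square is 1 gene (rows, grouped by role) in 1 liver (columns), coloured by its log2 value minus the mean of that run's controls, with colours ending at ±1.5. Knockout livers, left of the solid line, are mostly blue (lower), except for knockout replicates 2 and 5, with 29 and 21 genes above that mean. The rows of Cpt1a, Crot and Decr2 are mostly red.

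Of the fatty acid oxidation genes, 4 were lower in knockout livers, and most of the others had differences below 0 that did not pass the threshold. Not all of these were smaller: Acot3 (-1.02 ± 0.38, SE) and Acot1 (-0.81 ± 0.33, SE) differed more than any called gene, with larger standard errors. The difference was below 0 for 33 of the 36 genes, beside 13955 of all 25428 genes, and the median difference was -0.25 on the log2 scale (-16.2% as a change in signal), beside -0.013 over all genes. Single differences ran between -1.02 for Acot3 and 0.34 for Cpt1a. At an adjusted p under 0.05 in limma, with adjustment over all genes, the lower ones were the peroxisomal thiolase Acaa1b and the mitochondrial enzymes Acads, Acaa2 and Acadvl. The background was 4.05% of all genes called lower, 3.28% called higher and 7.33% called in either direction. In limma, 0 of the genes were called higher. Before adjustment, p was under 0.05 for 18 genes that were lower (13.0% of all genes) and for 1 that was higher, Cpt1a (9.41% of all genes).

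Without knockout replicate 2 the count of lower genes was 15 of 36, with 4.04% of all genes called lower and 3.46% called higher. In limma, 0 genes were then called higher (1 at an unadjusted p under 0.05, Cpt1a). All 4 genes called over all livers were among these 15, and the 11 others were Fabp1, Cpt2, Crat, Acadl, Decr1, Ehhadh, Hsd17b4, Acot1, Acot2, Acot3 and Pdk4. The median difference was then -0.33. Leaving out any other liver gave between 2 lower genes (without knockout replicate 3, 4 or 7) and 8 (without knockout replicate 5), as the plot of the count by liver left out shows.

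**Figure D2:**
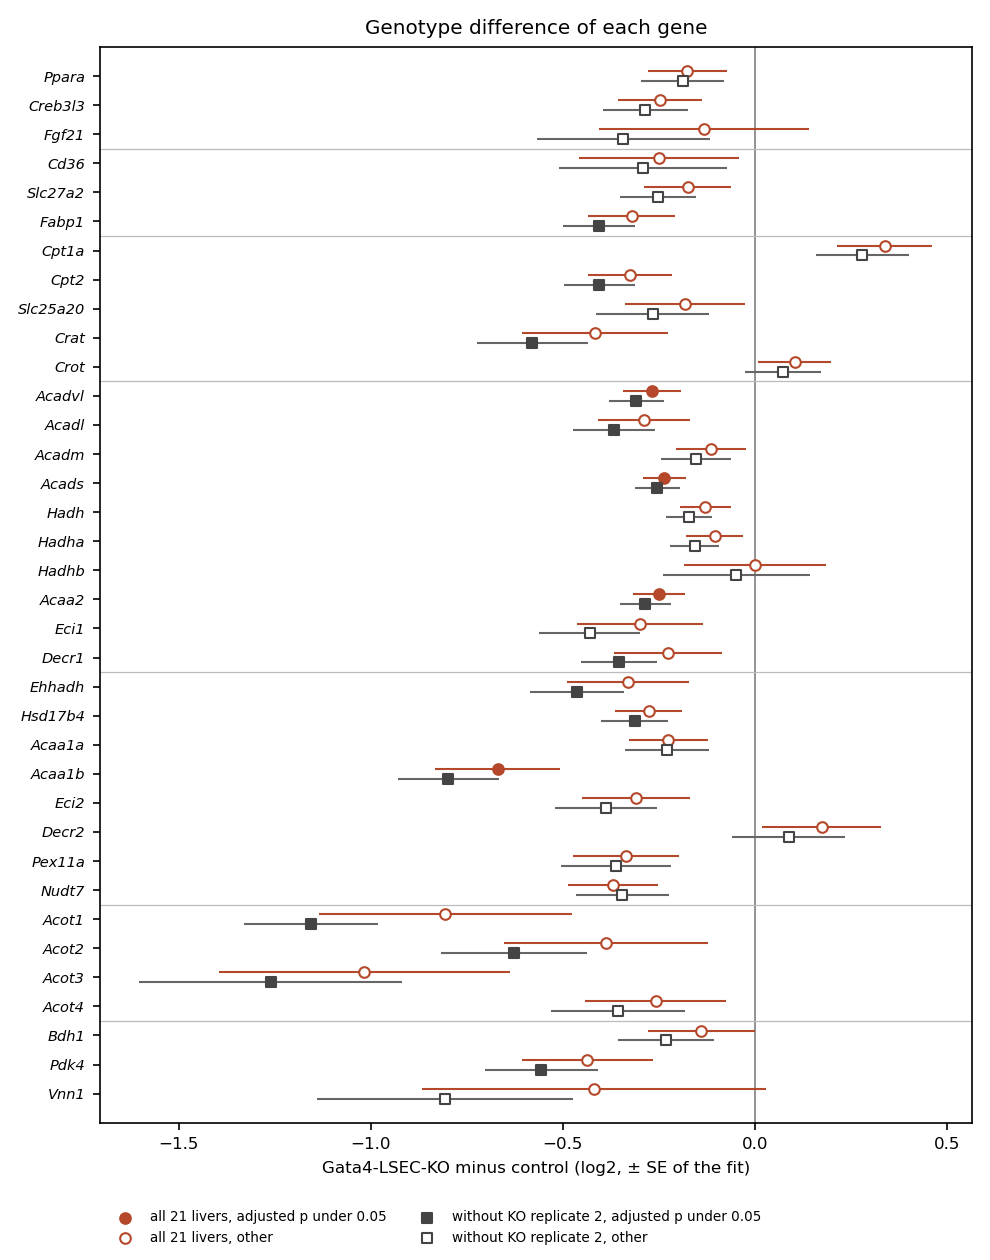
Difference of each gene, Gata4-LSEC-KO minus control on the log2 scale with its standard error, over all 21 livers (red circles) and without knockout replicate 2 (grey squares). Filled marks have an adjusted p under 0.05. All but Cpt1a, Crot and Decr2 have circles at or left of 0, and the circles of Acadvl, Acads, Acaa2 and Acaa1b are filled.

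**Figure D3:**
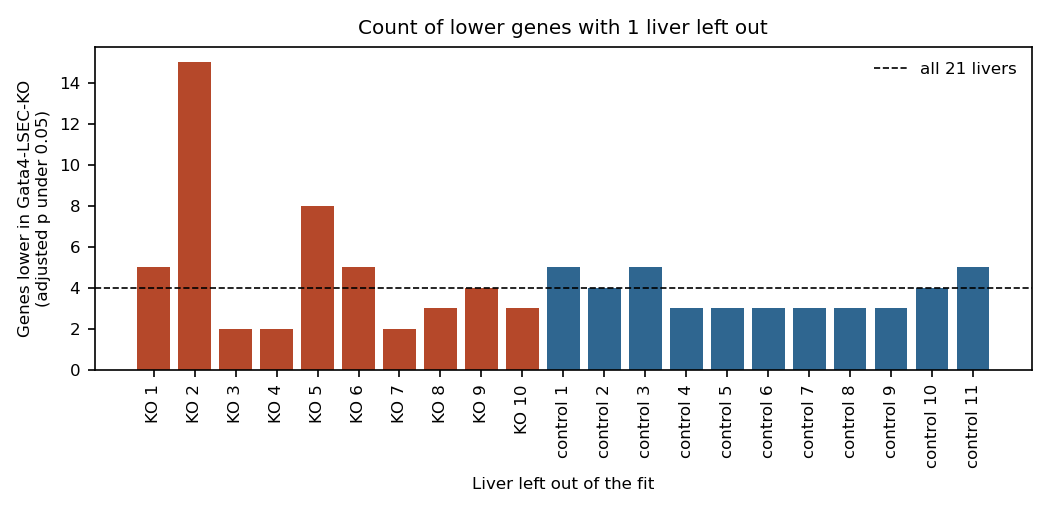
Number of the 36 genes with an adjusted p under 0.05 and a lower value in knockout livers when 1 liver is left out (horizontal axis), with the count over all 21 livers as a dashed line at 4. The bar for knockout replicate 2 reaches 15, and the bars for control livers lie between 3 and 5.

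PPAR alpha and the retinoid X receptor bind together to a direct repeat of AGGTCA with 1 base of any kind between the copies (DR1, AGGTCANAGGTCA). Promoters were read from RefSeq (GRCm38.p6), from 250 bases before to 50 bases after each gene's start, and 31 of the 36 genes had an entry. Each gene was counted by its best match on either strand. The exact repeat was held by 0 of these 31 genes (0.0481% of all 27025 genes with a promoter in RefSeq). With at most 1 mismatch it was held by 1 (3.23%, beside 0.644% of those 27025 genes), and with at most 2 mismatches by 5 (16.1%, beside 4.40%). These were Fabp1, Cd36, Slc25a20, Creb3l3 and Acot4, whose matches began at -67, -63, 7, -209 and -13 relative to the start. The sequences below are the 250 bases before the start, from 5′ to 3′ on the strand of the gene, with the match in capitals, which on the opposite strand reads as its reverse complement. Fabp1 (chr6:71199629-71199878, plus strand) is shown for the closest match, Acot4 (chr12:84038129-84038378, plus strand) for a match next to the start, and Creb3l3 (chr10:81092592-81092841, minus strand) for one among the regulators. Acaa1b (chr9:119157094-119157343, minus strand), the called gene with the largest difference, is shown as a promoter without a match.
Fabp1: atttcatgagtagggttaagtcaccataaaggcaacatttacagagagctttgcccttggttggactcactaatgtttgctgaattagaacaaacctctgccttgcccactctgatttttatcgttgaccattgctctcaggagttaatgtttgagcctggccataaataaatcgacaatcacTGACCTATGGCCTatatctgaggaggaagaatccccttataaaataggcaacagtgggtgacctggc
Acot4: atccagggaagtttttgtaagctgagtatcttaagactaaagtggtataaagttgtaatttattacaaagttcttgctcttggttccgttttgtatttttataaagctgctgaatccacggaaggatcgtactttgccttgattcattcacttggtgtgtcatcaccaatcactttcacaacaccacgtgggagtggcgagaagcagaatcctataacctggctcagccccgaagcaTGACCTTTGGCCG
Creb3l3: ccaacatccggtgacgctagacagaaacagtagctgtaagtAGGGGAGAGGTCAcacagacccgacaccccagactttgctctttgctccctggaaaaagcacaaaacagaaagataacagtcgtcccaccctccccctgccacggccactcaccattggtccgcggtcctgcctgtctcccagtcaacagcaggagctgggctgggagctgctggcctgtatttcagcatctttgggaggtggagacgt
Acaa1b: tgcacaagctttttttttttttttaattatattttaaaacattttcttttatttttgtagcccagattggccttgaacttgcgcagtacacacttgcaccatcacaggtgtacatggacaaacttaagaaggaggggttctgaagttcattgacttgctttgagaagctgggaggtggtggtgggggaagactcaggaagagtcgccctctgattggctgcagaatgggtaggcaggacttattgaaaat
Of these 4 genes, Acaa1b was called lower over all livers, Fabp1 only without knockout replicate 2, and Acot4 and Creb3l3 in neither fit. A match describes letters in this window and not a bound site, and sites farther from the start were not looked for.

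Among the regulators, none of the 3 genes passed the test with or without knockout replicate 2. Ppara, the receptor, had lowest, median and highest log2 values of 7.90, 8.21 and 8.66 in knockout livers, against 8.12, 8.30 and 8.98 in controls. The groups overlapped widely, and the difference of -0.18 ± 0.10 (SE) did not pass (adjusted p = 0.332). Creb3l3 encodes CREBH, a transcription factor of the endoplasmic reticulum that acts with PPAR alpha in the fasted liver. It differed by -0.25 ± 0.11 (SE; p = 0.0336 before adjustment, adjusted p = 0.177), with 7 of 10 knockout livers below the mean of their run's controls. Fgf21, a hormone that liver secretes on fasting under PPAR alpha control, had values of 4.78, 5.04 and 6.97 in knockout livers, against 4.24, 5.64 and 6.38 in controls. The highest of all 21 was that of knockout replicate 2, while the other knockout livers lay between 4.78 and 5.55. Its difference of -0.13 ± 0.27 (SE) did not pass (adjusted p = 0.839), and neither did that without knockout replicate 2, -0.34 ± 0.23 (SE; adjusted p = 0.406).

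In uptake, binding and activation, 0 of 3 genes passed over all livers and 1, Fabp1, without knockout replicate 2. Of all genes, 4.05% and 4.04% were called lower in these 2 fits. Fabp1 encodes the abundant fatty acid binding protein of liver, and its promoter holds the closest match shown above. Its lowest, median and highest values were 11.36, 11.74 and 12.49 in knockout livers, against 11.84, 12.07 and 12.46 in controls. Of the knockout livers, 7 lay below every control, and knockout replicate 2 lay above every control. The difference was -0.32 ± 0.11 (SE; p = 0.00999 before adjustment, adjusted p = 0.0886) over all livers and -0.41 ± 0.094 (SE; adjusted p = 0.0133) without that liver, and it also passed without knockout replicate 5 (adjusted p = 0.0452). Slc27a2, a transporter and very long chain acyl-CoA synthetase, differed by -0.17 ± 0.11 (SE) and the scavenger receptor Cd36, which takes up fatty acids, by -0.25 ± 0.21 (SE). Neither passed (adjusted p = 0.393 and 0.533). Cd36 is also made by endothelial cells and macrophages.

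The carnitine shuttle held genes with differences of both signs. Cpt1a encodes the outer membrane carnitine palmitoyltransferase of liver, the rate-limiting gate of fatty acid entry into mitochondria, and Cpt2 its partner on the inner membrane. Cpt1a had lowest, median and highest values of 9.98, 10.46 and 11.14 in knockout livers, against 9.77, 10.09 and 10.84 in controls. Of 10 knockout livers, 9 lay above the mean of their run's controls, among them knockout replicate 2, and knockout replicate 4 was the lowest. The difference of 0.34 ± 0.12 (SE; 1.26-fold) had p = 0.0124 before adjustment and did not pass over all livers (adjusted p = 0.0999). It passed without control replicate 5 or knockout replicate 4 (adjusted p = 0.0495 and 0.0226).

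Cpt2 went the other way, with values of 8.38, 8.80 and 9.51 in knockout livers, against 8.93, 9.13 and 9.45 in controls. Knockout livers were mostly low, 7 of them below every control, with knockout replicate 2 at the top. Its difference was -0.33 ± 0.11 (SE; p = 0.00710 before adjustment, adjusted p = 0.0733) over all livers and -0.41 ± 0.093 (SE; adjusted p = 0.0124) without that liver, and it passed also without knockout replicate 5 (adjusted p = 0.0374). Crat, the carnitine acetyltransferase, had values of 6.93, 7.25 and 8.74 in knockout livers, against 7.23, 7.90 and 8.30 in controls. Here too the highest value was that of knockout replicate 2, 8.74, and the other knockout livers reached at most 7.78. The difference of Crat was -0.42 ± 0.19 (SE; p = 0.0395 before adjustment, adjusted p = 0.194) over all livers and -0.58 ± 0.14 (SE; adjusted p = 0.0190) without it. The translocase Slc25a20 and the peroxisomal carnitine octanoyltransferase Crot differed by -0.18 ± 0.16 and 0.10 ± 0.10 (SE), and neither passed (adjusted p = 0.542 and 0.587).

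Of 10 genes of mitochondrial beta-oxidation, 3 were lower and 0 higher, beside 4.05% and 3.28% of all genes, with a median difference of -0.23. The first step is catalysed by acyl-CoA dehydrogenases of different chain length, and those for the longest (Acadvl) and shortest (Acads) chains both passed. Acads had lowest, median and highest values of 8.62, 8.74 and 8.89 in knockout livers, against 8.79, 8.95 and 9.20 in controls. All 10 knockout livers were lower than the mean of their run's controls and 6 below every control. It was 1.18-fold lower, a difference of -0.24 ± 0.057 (SE; adjusted p = 0.0156). Acads kept an adjusted p under 0.05 whichever single liver was left out (at most 0.0331).

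Acadvl had values of 9.69, 9.99 and 10.50 in knockout livers, against 10.02, 10.30 and 10.67 in controls. In 9 of 10 knockout livers it was lower than the mean of that run's controls, knockout replicate 2 being the exception and the highest. It was 1.20-fold lower, a difference of -0.27 ± 0.076 (SE; adjusted p = 0.0351). This call is narrow: without any 1 of control replicates 4 to 9 or knockout replicates 3, 4, 7, 8 or 10, 11 livers in all, the adjusted p was 0.0517 to 0.0708. The mitochondrial thiolase Acaa2, which ends each cycle by releasing acetyl-CoA, had values of 10.49, 10.80 and 11.07 in knockout livers, against 10.91, 11.02 and 11.20 in controls. Of the knockout livers, 7 lay below every control. Acaa2 was 1.19-fold lower, a difference of -0.25 ± 0.068 (SE; adjusted p = 0.0287), and missed the threshold without knockout replicate 3, 4 or 7 (adjusted p = 0.0506 to 0.0582).

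Acadm, the medium chain dehydrogenase and a classic PPAR alpha target, had values of 10.68, 11.21 and 11.52 in knockout livers, against 11.002, 11.30 and 11.59 in controls. The groups overlapped, 5 of 10 knockout livers were lower than the mean of their run's controls, and the low end was set by knockout replicate 4. Its difference of -0.12 ± 0.091 (SE) did not pass (adjusted p = 0.504). The long chain dehydrogenase Acadl had values of 9.54, 9.89 and 10.67 in knockout livers, against 9.76, 10.23 and 10.80 in controls. Knockout replicate 2 was 10.67, while the other knockout livers reached at most 10.04. The difference of Acadl was -0.29 ± 0.12 (SE; p = 0.0249 before adjustment, adjusted p = 0.148) over all livers and -0.37 ± 0.11 (SE; adjusted p = 0.0416) without knockout replicate 2.

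Decr1, the mitochondrial dienoyl-CoA reductase used for polyunsaturated chains, had values of 7.81, 8.22 and 9.26 in knockout livers, against 8.03, 8.56 and 8.82 in controls. It was high in knockout replicate 2 and at most 8.43 in the other knockout livers. Its difference was -0.23 ± 0.14 (SE; adjusted p = 0.368) over all livers and -0.35 ± 0.10 (SE; adjusted p = 0.0345) without that liver. The remaining members of this group did not pass in either fit. They were the hydroxyacyl-CoA dehydrogenase Hadh (-0.13 ± 0.066, SE), the enoyl-CoA isomerase Eci1 (-0.30 ± 0.16, SE) and both subunits of the trifunctional protein, Hadha (-0.10 ± 0.074, SE) and Hadhb (-0.00082 ± 0.18, SE). Hadhb spread widely, between 5.15 and 6.35 in knockout livers and 4.45 and 6.45 in controls. These values lay far below those of Hadha, 10.75 to 11.47 in knockout livers and 10.84 to 11.31 in controls. How well the row measures Hadhb was not tested, so its difference near 0 says little about that gene.

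**Figure D4:**
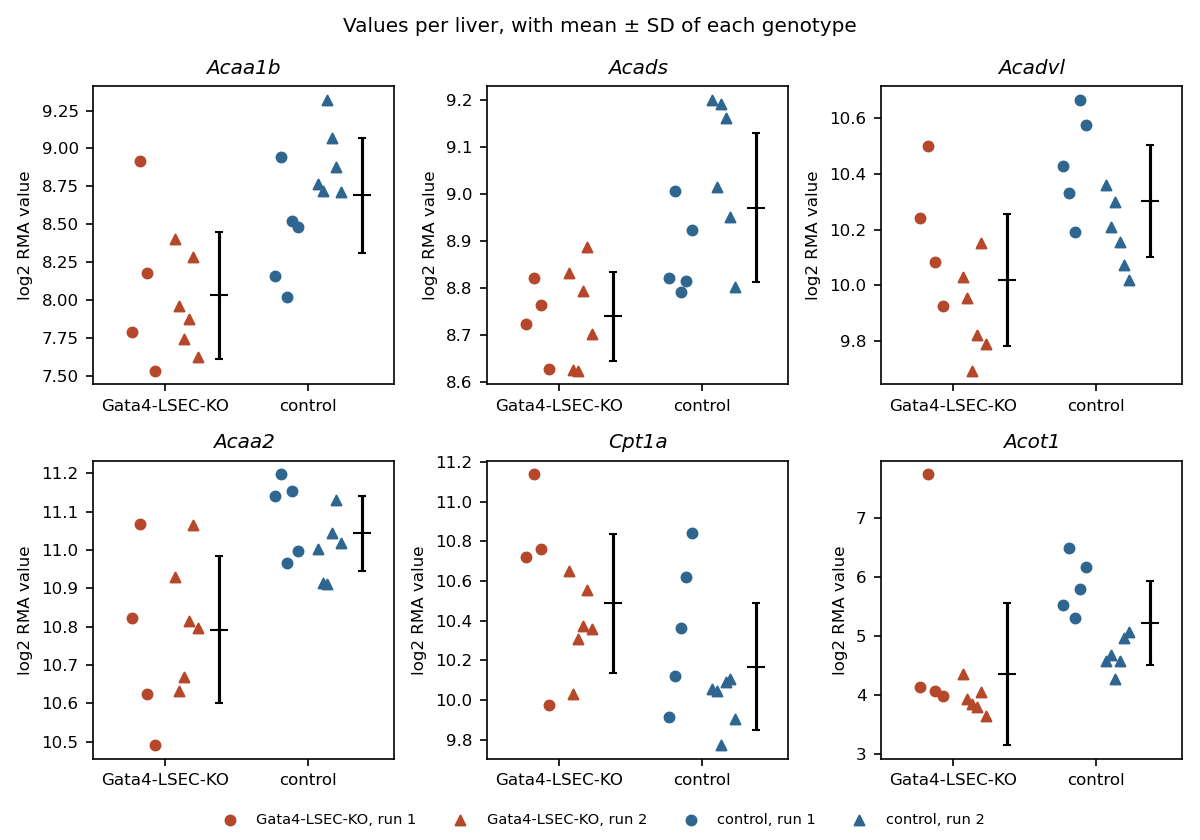
Log2 RMA values per liver of 6 genes, with circles for run 1, triangles for run 2 and a bar for the mean ± SD of each genotype. Acaa1b, Acads, Acadvl and Acaa2 are lower in most knockout livers, Cpt1a is higher in most, and in Acot1 a single knockout liver, replicate 2, lies at 7.74 while the other knockout livers reach at most 4.34.

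Among 8 peroxisomal genes, 1 was lower over all livers (4.05% of all genes) and 3 without knockout replicate 2 (4.04% of all genes). Over all livers, 7 were lower at an unadjusted p under 0.05 (13.0% of all genes). The median difference was -0.32. Acaa1b, a thiolase of rodent peroxisomes, had lowest, median and highest values of 7.54, 7.92 and 8.91 in knockout livers, against 8.02, 8.72 and 9.32 in controls. In 9 of 10 knockout livers it was lower than the mean of that run's controls, and 6 lay below every control. It was 1.59-fold lower, a difference of -0.67 ± 0.16 (SE; adjusted p = 0.0165) over all livers and -0.80 ± 0.13 (SE; adjusted p = 0.00142) without knockout replicate 2. The call held whichever single liver was left out (adjusted p at most 0.0346). Within runs, the difference of Acaa1b was -0.32 in run 1 (limma, adjusted p = 0.721) and -0.93 in run 2 (limma, adjusted p = 0.00862). A limma test of the difference between runs gave p = 0.0630 before adjustment (adjusted p = 0.517).

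Its near copy Acaa1a, on chromosome 9 with Slc22a14, Slc22a13, Oxsr1 and Myd88 between them in RefSeq order, differed by -0.23 ± 0.10 (SE; p = 0.0395 before adjustment, adjusted p = 0.194). Probes may not separate these 2 copies fully, so both values are uncertain to that extent. Ehhadh, the bifunctional enzyme of peroxisomes and a strong PPAR alpha target, had values of 9.49, 10.11 and 11.07 in knockout livers, against 9.84, 10.26 and 10.90 in controls. Knockout replicate 2 gave the highest value of all livers and the other knockout livers at most 10.15, below the control median. The difference was -0.33 ± 0.16 (SE; p = 0.0498 before adjustment, adjusted p = 0.223) over all livers and -0.46 ± 0.12 (SE; adjusted p = 0.0257) without it. Hsd17b4, the other bifunctional enzyme, had values of 10.50, 10.81 and 11.21 in knockout livers, against 10.84, 11.13 and 11.55 in controls. It was lower than the mean of that run's controls in 9 of 10 knockout livers. Its difference was -0.28 ± 0.088 (SE; p = 0.00465 before adjustment, adjusted p = 0.0577) over all livers, and it passed without knockout replicate 2, 5 or 6 (adjusted p = 0.0331 to 0.0469).

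Nudt7, which splits coenzyme A in peroxisomes, had lowest, median and highest values of 6.16, 6.59 and 7.31 in knockout livers, against 6.42, 7.04 and 7.80 in controls. It differed by -0.37 ± 0.12 (SE; p = 0.00452 before adjustment, adjusted p = 0.0565) and lay below the mean of the run's controls in 9 of 10 knockout livers. It passed without control replicate 3 or 11 or without knockout replicate 1 or 5 (adjusted p = 0.0286 to 0.0460). Pex11a, which promotes peroxisome division, and the isomerase Eci2 differed by -0.34 ± 0.14 (SE; p = 0.0234 before adjustment) and -0.31 ± 0.14 (SE; p = 0.0394 before adjustment), and neither passed (adjusted p = 0.144 and 0.193). The peroxisomal dienoyl-CoA reductase Decr2 had a difference above 0, 0.17 ± 0.16 (SE), that did not pass (adjusted p = 0.567).

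The acyl-CoA thioesterases release free fatty acids from coenzyme A, in the cytosol (Acot1), mitochondria (Acot2) and peroxisomes (Acot3 and Acot4). Their median difference was -0.60, but 0 of 4 passed over all livers and 3 without knockout replicate 2, beside 4.05% and 4.04% of all genes called lower. Acot1 had lowest, median and highest values of 3.65, 4.01 and 7.74 in knockout livers, against 4.27, 5.06 and 6.49 in controls. The 9 other knockout livers lay between 3.65 and 4.34, 8 of them below every control, while knockout replicate 2 was above every control. Its difference was -0.81 ± 0.33 (SE; p = 0.0233 before adjustment, adjusted p = 0.143) over all livers and -1.16 ± 0.17 (SE; adjusted p = 7.88e-04) without that liver. The Acot1 values of these 9 knockout livers lay near the array median of 3.75 and may be close to background. Controls lay between 5.31 and 6.49 in run 1 and between 4.27 and 5.06 in run 2. Acot2 had values of 7.33, 7.97 and 10.08 in knockout livers, against 7.95, 8.58 and 9.29 in controls. Its highest value was again that of knockout replicate 2, and the others reached at most 8.39. The difference was -0.39 ± 0.27 (SE; adjusted p = 0.424) over all livers and -0.63 ± 0.19 (SE; adjusted p = 0.0482) without it.

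Acot3 had values of 3.94, 5.61 and 7.22 in knockout livers, against 4.73, 6.38 and 7.81 in controls. The groups overlapped, with 3 knockout livers below every control and a wide spread in both genotypes. Its difference of -1.02 ± 0.38 (SE; p = 0.0138 before adjustment) did not pass (adjusted p = 0.106), but passed without knockout replicate 2 (-1.26 ± 0.34, SE; adjusted p = 0.0297) or without control replicate 1 (adjusted p = 0.0425). Acot4, whose promoter is shown above, differed by -0.26 ± 0.18 (SE; adjusted p = 0.443). The 4 genes lie next to each other on chromosome 12 in RefSeq order (Acot2, Acot1, Acot4, Acot3). As near copies, they may share probe signal, so the values of Acot1 and Acot2 in particular are uncertain as separate measurements.

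Of the 3 ketone and fuel switching targets, 0 passed over all livers and 1, Pdk4, without knockout replicate 2, beside 4.05% and 4.04% of all genes called lower. Pdk4 inhibits pyruvate dehydrogenase and so spares glucose when fatty acids are burned. Its lowest, median and highest values were 6.30, 6.79 and 7.62 in knockout livers, against 6.65, 7.34 and 7.87 in controls. Of the knockout livers, 5 lay below every control and knockout replicate 2 was the highest. The difference was -0.44 ± 0.17 (SE; p = 0.0181 before adjustment, adjusted p = 0.124) over all livers and -0.56 ± 0.15 (SE; adjusted p = 0.0262) without it. Vnn1, a pantetheinase and PPAR alpha target, spread between 4.45 and 9.49 in knockout livers and between 5.91 and 8.18 in controls. Its difference of -0.42 ± 0.45 (SE) did not pass (adjusted p = 0.646), nor did that of the hydroxybutyrate dehydrogenase Bdh1, -0.14 ± 0.14 (SE; adjusted p = 0.618).

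The genotype difference was also read within each run. In run 2, 6 of the 36 genes were lower and 1 higher, beside 2.89% and 2.17% of all genes. The lower ones were Acads, Acaa1b, Crat, Ehhadh, Acot1 and Pdk4, and the higher one was Cpt1a, with 0.38 in run 2 (adjusted p = 0.0447) and 0.28 in run 1. In run 1, which held 4 knockout livers with knockout replicate 2 among them, limma called 0 of the 36 genes and 3 genes of the whole table (0.0118%), with 4 genes lower and 0 higher at an unadjusted p under 0.05, beside 6.42% and 5.40% of all genes. The median difference was -0.27 in run 2 and -0.24 in run 1.

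A test of the difference between runs, the genotype by run term, called 0 of the genes and 0.0315% of all genes (lowest adjusted p among the fatty acid oxidation genes 0.395). At an unadjusted p under 0.05 it named 2 of them, beside 10.2% of all genes. These were Acadm, with 0.057 in run 2 and -0.35 in run 1 (p = 0.0237), and Pdk4, with -0.73 in run 2 and -0.033 in run 1 (p = 0.0380). Between the runs themselves, 1 gene was higher in run 2, Nudt7 (by 0.52; adjusted p = 0.0142), and 0 were lower in limma, beside 1.93% and 2.17% of all genes.

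How far these genes varied together was read against Cyp4a14, the fatty acid hydroxylase that responds to PPAR alpha in rodent liver and is none of the 36. Values were centred on the mean of each genotype and run, so the genotype difference itself was removed. Across 21 livers, r with Cyp4a14 was above 0 for 34 of 36 genes, with a median r of 0.654 and a median rho of 0.542. In a limma fit across all other genes, Cyp4a14 had a slope past the threshold for 7 of them, beside 0.0590% of all genes. These were Cpt2, Eci1, Decr1, Acaa1b, Acot1, Acot2 and Vnn1, all with positive slopes. Eci1 had r = 0.833 and rho = 0.794 (permutation p = 1e-05 and 4.00e-05; adjusted p of the limma slope = 0.0190). Cpt2 had r = 0.826 and rho = 0.738 (permutation p = 1e-05 and 2.10e-04; adjusted p of the limma slope = 0.0280). Both rose with Cyp4a14 from liver to liver within a genotype and run. The smallest p that 100000 permutations can give is 1e-05. Centred values were shuffled over all livers and not within genotype and run, so the permutation p-values are approximate.

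The strength of this relation rests in part on the extreme livers. In centred values, knockout replicates 2 and 4 lie farthest from the median of Cyp4a14. Before centring, the lowest knockout liver was replicate 10, at 3.65, below the array median of 3.75 and perhaps close to background. Without replicates 2 and 4 (19 livers) the median r was 0.397, and r was above 0 for 35 genes. The limma fit then called 0 of the genes (0.00393% of all genes). At an unadjusted p under 0.05 with a positive slope it named 14 of them (2.78% of all genes). For Eci1, r was then 0.667 (permutation p = 0.00191) and for Cpt2 0.653 (permutation p = 0.00225). For r, values were not centred anew, so the run 1 knockout means still held both livers. These r values therefore do not fully remove the influence of the 2 livers. Within run 1 (9 livers) the median r was 0.781, with 35 genes above 0, and within run 2 (12 livers) 0.455, with 33. The limma fit called 0 of the genes in either run. At an unadjusted p under 0.05 with a positive slope it named 27 in run 1 (2.17% of all genes) and 9 in run 2 (2.92%). Ppara (r = 0.212), Acaa1a (r = 0.0361), Nudt7 (r = -0.0650) and Cd36 (r = -0.112) had the values nearest to or below 0. Cpt1a, with a genotype difference above 0, had r = 0.622 (permutation p = 0.00304), and r = 0.393 (permutation p = 0.0968) without these livers.

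**Figure D5:**
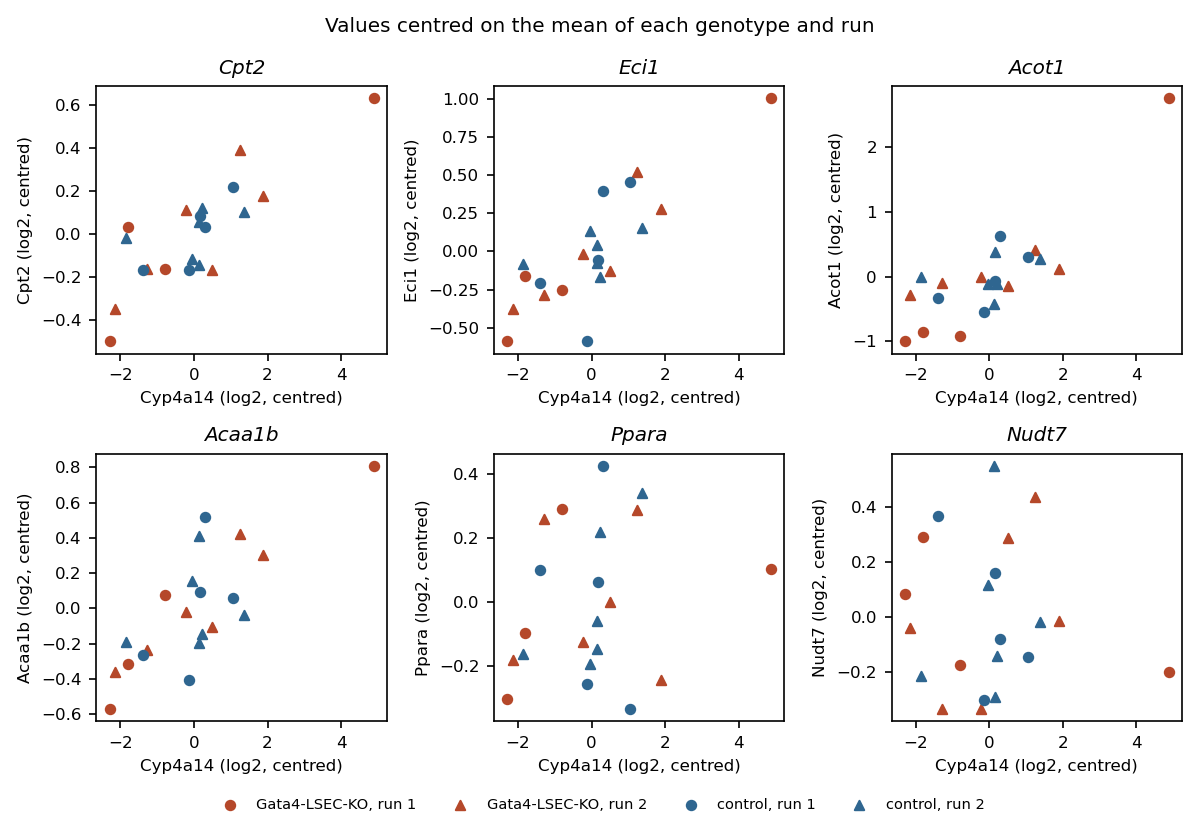
Log2 values of 6 genes against Cyp4a14, each centred on the mean of its genotype and run, with 1 point per liver. Cpt2, Eci1, Acot1 and Acaa1b rise with Cyp4a14, with knockout replicate 2 as the point at far right, while Ppara and Nudt7 show no such slope (r = 0.212 and -0.0650).

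Other genes of the pathway were read from lists of 121 symbols, of which 110 were measured. In knockout livers 15 were lower and 2 higher, beside 4.05% and 3.28% of all genes, which is also the background of each list below. At an unadjusted p under 0.05, that background is 13.0% lower and 9.41% higher. Omega-oxidation held the largest falls among these lists, with 2 of 8 genes lower. Cyp4a14 had lowest, median and highest log2 values of 3.65, 5.84 and 11.79 in knockout livers, against 6.73, 8.81 and 11.23 in controls. Its difference was -3.00 ± 0.70 (SE; adjusted p = 0.0132), in 9 of 10 knockout livers, the exception being knockout replicate 2 at 11.79, above every control. The lowest Cyp4a14 value, 3.65, lay below the array median of 3.75 and may be close to background, so the size of the difference is uncertain to that extent. Cyp4a10 had values of 4.87, 7.83 and 12.14 in knockout livers, against 9.01, 10.01 and 11.87 in controls. It had the same exception, a difference of -2.28 ± 0.63 (SE; adjusted p = 0.0315) and missed the threshold without any 1 of 6 livers, knockout replicates 1, 3, 4, 7 and 10 and control replicate 9 (adjusted p up to 0.0590).

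Of 31 further peroxisomal genes, 5 were lower and 0 higher in limma (13 and 1 at an unadjusted p under 0.05), with a median difference of -0.15. They included Pex16 (-0.43 ± 0.072, SE; adjusted p = 0.00159) and Pex3 (-0.22 ± 0.059, SE; adjusted p = 0.0306), both needed to build the peroxisomal membrane, and Abcd3, a transporter of that membrane (-0.40 ± 0.084, SE; adjusted p = 0.00782). Pex16 was lower than the mean of that run's controls in all 10 knockout livers. Of 31 further mitochondrial oxidation genes, 6 were lower and 0 higher in limma (13 and 3 at an unadjusted p under 0.05), among them Slc27a5, an acyl-CoA and bile acid-CoA synthetase (-0.29 ± 0.062, SE; adjusted p = 0.00916), the dehydrogenase family member Acad9 (-0.36 ± 0.084, SE; adjusted p = 0.0132) and the medium chain acyl-CoA synthetase Acsm3 (-0.35 ± 0.089, SE; adjusted p = 0.0228). Each of these 3 was below the mean of the run's controls in all 10 knockout livers.

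Among 13 receptor partners, Rxra, the retinoid X receptor that pairs with PPAR alpha, was higher (0.14 ± 0.042, SE; adjusted p = 0.0462) and Esrra, a nuclear receptor of mitochondrial genes, was lower (-0.27 ± 0.074, SE; adjusted p = 0.0304). The call of Rxra was lost without knockout replicate 2 (adjusted p = 0.0673). Of 5 ketogenesis genes, 1 was higher and 0 lower. It was Oxct1 (0.50 ± 0.12, SE; adjusted p = 0.0162), which consumes ketone bodies and is low in hepatocytes. Of 22 lipid droplet and secreted targets, 1, Txnip, was lower (-0.72 ± 0.19, SE; adjusted p = 0.0225). The secreted lipase inhibitor Angptl4 (-0.67 ± 0.29, SE; adjusted p = 0.160) and the droplet coat gene Plin2 (0.037 ± 0.13, SE; adjusted p = 0.912), both PPAR alpha targets, did not pass.

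Some markers of other cell types also differed by genotype in the same livers. Of 9 hepatocyte markers 0 passed in limma (0 lower and 2 higher at an unadjusted p under 0.05), with a median difference of -0.0074. Alb had little room to differ at 13.75 in a scale that ends at 13.81. With a list mean of 13.11 to 13.26 in knockout livers, the other markers may have had limited room too. Of 9 sinusoidal endothelial markers, 6 were lower, and of 14 continuous endothelial markers, 9 were higher and 1 lower. Those called higher were 7 of 12 Kupffer cell and macrophage markers, 2 of 8 monocyte markers and 5 of 11 B cell and neutrophil markers, beside 3.28% of all genes called higher and 4.05% called lower. As a mean deviation from the run's controls, the hepatocyte list ranged over -0.10 to 0.046 in knockout livers and -0.073 to 0.060 in controls. The sinusoidal list ranged over -0.99 to -0.18 in knockout livers and -0.44 to 0.64 in controls, and the continuous endothelial list over 0.39 to 1.06 in knockout livers and -0.24 to 0.17 in controls, so the groups overlapped in the sinusoidal list but not in the continuous one. The Kupffer cell list ranged over 0.37 to 1.48 in knockout livers and -0.91 to 1.28 in controls, the monocyte list over 0.10 to 2.06 in knockout livers and -0.31 to 0.87 in controls and the B cell and neutrophil list over 0.44 to 4.39 in knockout livers and -0.31 to 0.63 in controls. Their part in the differences of fatty acid oxidation genes was not tested.

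Among knockout livers, replicate 2 had the lowest continuous endothelial deviation (0.39) and the lowest B cell and neutrophil deviation (0.44), together with the highest sinusoidal (-0.18) and Kupffer cell (1.48) deviations. Its continuous endothelial deviation still lay above that of every control. Feeding state and time of day, which set PPAR alpha activity in liver, are not given in the sources used here. Of 17 circadian clock genes, 0 passed in limma (5 lower and 1 higher at an unadjusted p under 0.05), and their mean deviation was -0.39 to 0.015 in knockout livers and -0.078 to 0.23 in controls. Of 11 fed-state lipogenic genes, 3 were lower and 0 higher in limma (10 and 0 at an unadjusted p under 0.05), with a median difference of -0.60. Within run 2, 7 were lower (2.89% of all genes). Within run 1 limma called 0, with 2 lower at an unadjusted p under 0.05 (6.42% of all genes). Those called over all livers were the malic enzyme Me1 (-0.96 ± 0.15, SE; adjusted p = 0.00128), the lipogenic regulator Thrsp (-0.71 ± 0.15, SE; adjusted p = 0.00867) and the pyruvate kinase Pklr (-0.67 ± 0.16, SE; adjusted p = 0.0145). The mean deviation of that list was -1.06 to 0.10 in knockout livers and -0.63 to 0.59 in controls, and the part of either list in the result was not tested.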

How the data were processed

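Total RNA of whole livers was labelled with biotin and measured on Affymetrix arrays. The authors deposited log2 values made with RMA, per the submitters' processing notes, which corrects background, brings all arrays to 1 distribution and combines each gene's probes into 1 value. The RMA version and array design are not given in the sources used here, nor is a build. Scanner files were not used, so low values may be close to background, and the number of arrays limits the precision. Of 25428 rows, 24705 had 1 symbol in the platform annotation, 0 had several and 723 had none. All rows were tested without a filter.

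Linear models with genotype and run terms were fitted to all 21 arrays in R 4.3.3 (limma 3.58.1, lmFit then eBayes). P-values were adjusted over all rows by Benjamini and Hochberg's method, with a threshold of 0.05. The labels call the samples biological replicates, and each array was taken as 1 animal. The descriptions number the samples in 2 consecutive blocks, used as runs, although no label names them batches.

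The genes, the further lists and the tests were chosen with earlier results of these data known. Named in full were genes past the threshold, those whose call depends on 1 liver, and Ppara, Cpt1a, Acadm, Ehhadh, Fgf21 and Pdk4. Other genes with an unadjusted p under 0.05 were given with that p, the rest by difference, and from each further list up to 3 genes past the threshold with the lowest p, with Cyp4a10, Cyp4a14, Angptl4 and Plin2 always. For Cyp4a14, adjustment over the list alone had been planned and was replaced by a limma fit with Cyp4a14 as a covariate and adjustment over all rows. Permutation tests of r and rho were two-sided and shuffled centred values across genotypes and runs. Promoters came from RefSeq (GRCm38.p6), and proteins of near copies were not compared. Only the limma genotype fit was tested on simulated data, with errors drawn independently for each gene. As alternatives, the fit was repeated with array weights, without rows of mean below the median, without each liver in turn, on median-centred or again quantile-normalised values, with a trended robust prior, without run, in each run alone, and with replicate number as block. Outlying values were sought with Dixon's ratio in the 10 knockout livers, and the 11 controls were not tested. Figures were drawn with matplotlib 3.10.9.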

Additional observations from a re-analysis of the deposited data

Results flagged for a closer look

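Of 40 genes tested with Dixon's ratio in the 10 knockout livers, 11 held 1 liver far from the others (ratio above its critical value), where chance gives about 1 in 20. The genes vary together, so these are not independent. Knockout replicate 2 was the high liver for 9 of them. Its log2 value, with the range of the other 9 knockout livers in brackets, was 6.97 for Fgf21 (4.78 to 5.55), 8.74 for Crat (6.93 to 7.78) and, among mitochondrial enzymes, 10.67 for Acadl (9.54 to 10.04), 11.47 for Hadha (10.75 to 11.08) and 9.26 for Decr1 (7.81 to 8.43). It was also 11.07 for Ehhadh (9.49 to 10.15), 7.74 for Acot1 (3.65 to 4.34), 10.08 for Acot2 (7.33 to 8.39) and 11.79 for Cyp4a14 (3.65 to 7.67).

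Knockout replicate 4, of the same run, was the low liver for the other 2. Its value was 10.68 for Acadm (11.07 to 11.52) and 9.76 for Decr2 (10.41 to 11.11). The count of lower genes, 4 over all livers, was 15 without knockout replicate 2 and 2 without knockout replicate 4. Leaving out most of the other livers changed it as well, to between 2 and 8.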

How the results depend on the processing

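The count of all genes past the threshold, 1864 over all livers, was 3 within run 1, where fewer livers entered the fit, and 1194 (without control replicate 8) to 2389 (without control replicate 1) with 1 liver left out. The count of lower fatty acid oxidation genes, 4, was 0 within run 1, 7 when rows of mean below the median were left out (fewer genes tested), where Cpt2, Hsd17b4 and Nudt7 also passed, and 2 to 15 with 1 liver left out. The count of higher ones, 0, was 1 within run 2 and 0 to 1 with 1 liver left out. Their median difference stayed between -0.33 and -0.22. The genotype by run term called 8 genes in all, 5 with an intensity trend and robust prior and 0 to 20 with 1 liver left out, none of them a fatty acid oxidation gene. The Cyp4a14 slope passed for 7 genes over all livers, 0 without the 2 livers farthest in Cyp4a14, 0 within run 1 and 0 within run 2. With a replicate block, 1244 genes in all and 5 of the fatty acid oxidation genes (lower) passed, Acadvl and Cyp4a10 losing and Fabp1 and Nudt7 gaining the call, but the numbers do not pair the livers: over 10 pairs, r of deviations lay between -0.055 and 0.17, 2 over 0.1, and 1 knockout liver correlated best with the control of its own number. A second quantile normalization, median centring, the trend and array weights changed none of the 40 single gene calls, and without the run term Acadvl missed it. Differences that changed sign, none past the threshold on either side, were Fgf21 (0.20), Crot (-0.022), Acot2 (0.12) and Acot4 (0.027) within run 1, Acadm (0.057) within run 2, Hadhb (0.0090 without the run term, 0.032 within run 1, 0.090 with the block, -0.11 to 0.088 with 1 liver left out) and Plin2 (-0.10 within run 2, -0.025 with the block, -0.036 to 0.093 with 1 liver left out). The cause was not tested.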
